A study of Mus musculus with 8 samples.

Results

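The 32 genes described here encode the proteins of blood coagulation and of fibrinolysis, and they were chosen by symbol, as a fixed list, from the 21968 gene symbols in the deposited tables. All 32 symbols were found, each had reads in all 8 libraries, and all 32 passed the filter on low counts. The livers came from Lgr5-LacZ transgenic mice on a mixed C57BL/6 and CBA background, aged 10 to 12 weeks in the sample labels and 7 to 12 weeks in the series text. Every mouse had received a single intraperitoneal injection of carbon tetrachloride (CCl4, 1 µl per g of body weight, in rapeseed oil), a solvent that kills hepatocytes around the central vein, and livers were taken 6 days later. RNA was sequenced in bulk from 4 groups with 2 libraries each: the b-gal+ and the b-gal- fraction of F4/80high cells, cells positive for EpCAM, and hepatocytes. The first 3 were sorted by flow cytometry, with a fluorogenic substrate for beta-galactosidase (b-gal) activity and antibodies to F4/80, a macrophage surface protein, or to EpCAM, a surface protein of bile duct epithelium. The series title calls the b-gal activity endogenous. The hepatocytes were pelleted at low speed. Each library pooled cells of 2 mice. All groups carried the transgene and the injury, and no uninjured group was analysed here, so every difference is one between cell groups of injured livers.

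Coagulation is a cascade of plasma proteases. Tissue factor (F3), a membrane protein outside the vessel lumen, binds factor VII, thrombin is formed on membranes with the help of the cofactors factor V and factor VIII, and thrombin cuts fibrinogen to fibrin, which factor XIII crosslinks. Endothelial cells restrain thrombin through thrombomodulin, the protein C receptor and tissue factor pathway inhibitor, while plasmin, made from plasminogen by tissue-type or urokinase-type activator, dissolves fibrin. The liver is the main source of most of the soluble factors: hepatocytes make fibrinogen and the vitamin K-dependent zymogens, and liver sinusoidal endothelial cells are a major source of factor VIII.

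The 3 fibrinogen genes lie within 1 cluster on mouse chromosome 3 and were the 3 most abundant members in hepatocytes, so their promoters are shown. Each sequence is the 250 bases before the RefSeq transcription start on GRCm38.p6, read 5′ to 3′ on the strand of the gene. Fga lies on the plus strand (window chr3:83025903-83026152), Fgb on the minus strand (chr3:83049864-83050113) and Fgg on the plus strand (chr3:83007474-83007723). Capitals mark matches, on either strand, to GTTAAT (a half-site of the hepatocyte nuclear factor 1 motif), TTGCNNAA (a C/EBP motif) and CTGGGAA (an interleukin-6 response element).
Fga: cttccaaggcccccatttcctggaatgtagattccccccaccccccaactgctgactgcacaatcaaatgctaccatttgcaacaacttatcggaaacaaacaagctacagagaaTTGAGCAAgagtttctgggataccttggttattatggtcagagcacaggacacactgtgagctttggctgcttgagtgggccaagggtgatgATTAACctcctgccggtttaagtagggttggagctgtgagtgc
Fgb: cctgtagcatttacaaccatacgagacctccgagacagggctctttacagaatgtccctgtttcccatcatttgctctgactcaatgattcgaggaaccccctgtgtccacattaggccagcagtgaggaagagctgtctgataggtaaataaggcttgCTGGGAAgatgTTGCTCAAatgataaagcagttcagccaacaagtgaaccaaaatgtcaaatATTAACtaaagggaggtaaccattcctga
Fgg: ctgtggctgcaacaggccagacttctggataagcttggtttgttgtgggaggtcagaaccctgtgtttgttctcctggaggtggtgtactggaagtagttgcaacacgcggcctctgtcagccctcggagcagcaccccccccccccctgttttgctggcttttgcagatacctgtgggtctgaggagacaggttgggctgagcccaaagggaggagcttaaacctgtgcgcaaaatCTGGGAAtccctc
In Fga the half-site lay 43 bases and the C/EBP match 135 bases before the start. In Fgb the half-site lay 29 bases, the C/EBP match 80 bases and the interleukin-6 element 91 bases before it. Fgg held only the interleukin-6 element, 13 bases before the start. Promoter windows were found for 24 of the 32 members. Among all 32851 windows of this length, 6.43% held GTTAAT, 9.56% held TTGCNNAA and 9.1% held CTGGGAA. Of the 24 members, 3 held the half-site (Fga, Fgb and F13b), 8 held the C/EBP motif (Fga, Fgb, F9, F11, Klkb1, Procr, Plaur and Serpinb2) and 4 held the interleukin-6 element (Fgb, Fgg, F9 and Tfpi). Of the 24 members, 16 were lower in all 3 sorted groups than in hepatocytes. These 16 included all 3 with the half-site, 5 of the 8 with the C/EBP motif and 3 of the 4 with the interleukin-6 element. The matches do not overlap each other in the 3 windows shown. The GENCODE span of Fga starts at 83026076, inside its window, and the Fga half-site lies within that span.

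Libraries held 16948568 to 24549242 reads in named genes, and a level is given as TMM-scaled CPM, the count per 1000000 reads. Before TMM scaling, 3 reads correspond to 0.122 to 0.177 CPM, and the TMM factors ran from 0.527 to 1.49. Hepatocyte markers summed to 368 and 797 CPM in b-gal+ cells, 219 and 464 CPM in b-gal- cells, 849 and 5648 CPM in EpCAM-positive cells and 226008 and 307934 CPM in hepatocytes. Markers of Kupffer cells, the resident macrophages of the liver, summed to 41403 and 38080.1 CPM in b-gal+ cells, 4075 and 2723 CPM in b-gal- cells, 1294 and 251 CPM in EpCAM-positive cells and 409.6 and 291 CPM in hepatocytes. Markers of sinusoidal endothelium summed to 4619.8 and 3397 CPM in b-gal+ cells, 25013 and 29337 CPM in b-gal- cells, 10789.7 and 9133 CPM in EpCAM-positive cells and 560.4 and 1299.8 CPM in hepatocytes. The b-gal- cells, although gated as F4/80high, thus held more sinusoidal endothelial than Kupffer cell marker RNA. No group was sorted as endothelial, so an endothelial source can be read here only through these markers. EpCAM-positive cells held Epcam at 88.5 and 213.7 CPM, but also the endothelial markers above, and B cell markers at 4293 and 1655 CPM against at most 76.4 CPM in every other library. The 2 EpCAM-positive libraries differed most from each other, with a Spearman correlation across genes of 0.926 against 0.98 to 0.985 in the other 3 pairs. The 4 Y-linked genes Ddx3y, Eif2s3y, Kdm5d and Uty had 265 to 2436 reads in every replicate 1 library and 0 reads in every replicate 2 library. Xist, expressed from the inactive X chromosome, was higher in replicate 2 of all 4 groups, at 12950 to 23002 reads. It still had 2411 to 7868 reads in the replicate 1 libraries, so Y-linked reads and Xist occurred together there. The sex of the pooled mice and any other difference between replicates 1 and 2 cannot be told apart. In bulk RNA, fewer cells of a type and less RNA per cell cannot be told apart either.

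The members split by cell source. In each of the 3 sorted groups 19 of the 32 were lower than in hepatocytes, and 7 to 12 were higher. The 3 comparisons share the hepatocyte libraries, so their calls are not independent. Tissue factor passed in none of them. The test was limma on log2(CPM + 0.5) with all 8 libraries in 1 fit, two-sided, with p-values adjusted by the Benjamini-Hochberg method over 14404 genes, and a call is an adjusted p under 0.05. Differences are given on the log2 scale with their standard error, first group minus second. A fold change on this scale understates the change of genes near 0 reads, and where a hepatocyte library held 4 reads or fewer (F13a1, Plat and Serpinb2) the fitted difference depends on the pseudocount. The 19 lower members are 59.4% of the 32, where 29.6% of all genes were called lower in b-gal+ cells, 29.7% in b-gal- cells and 29.1% in the EpCAM-positive cells. Higher members numbered 7 in b-gal+ cells (21.9%, beside 29.5% of all genes), 12 in b-gal- cells (37.5%, beside 33.5%) and 10 in EpCAM-positive cells (31.2%, beside 33.5%), shares near the background. The median log2 difference from hepatocytes over the 32 members was -6.5 in b-gal+ cells, -6.3 in b-gal- cells and -5.63 in the EpCAM-positive cells, beside 0.1, 0.17 and 0.15 over all genes tested. With the authors' own scaling in place of TMM these all-gene medians became 0.87, 1.13 and 1.32. Genes called higher and lower then numbered 7560 and 2303 for b-gal+ cells, 8566 and 2179 for b-gal- cells, and 9525 and 1698 for EpCAM-positive cells. Under that scaling 11 members in place of 7 were called higher in b-gal+ cells than in hepatocytes.

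**Figure D1:**
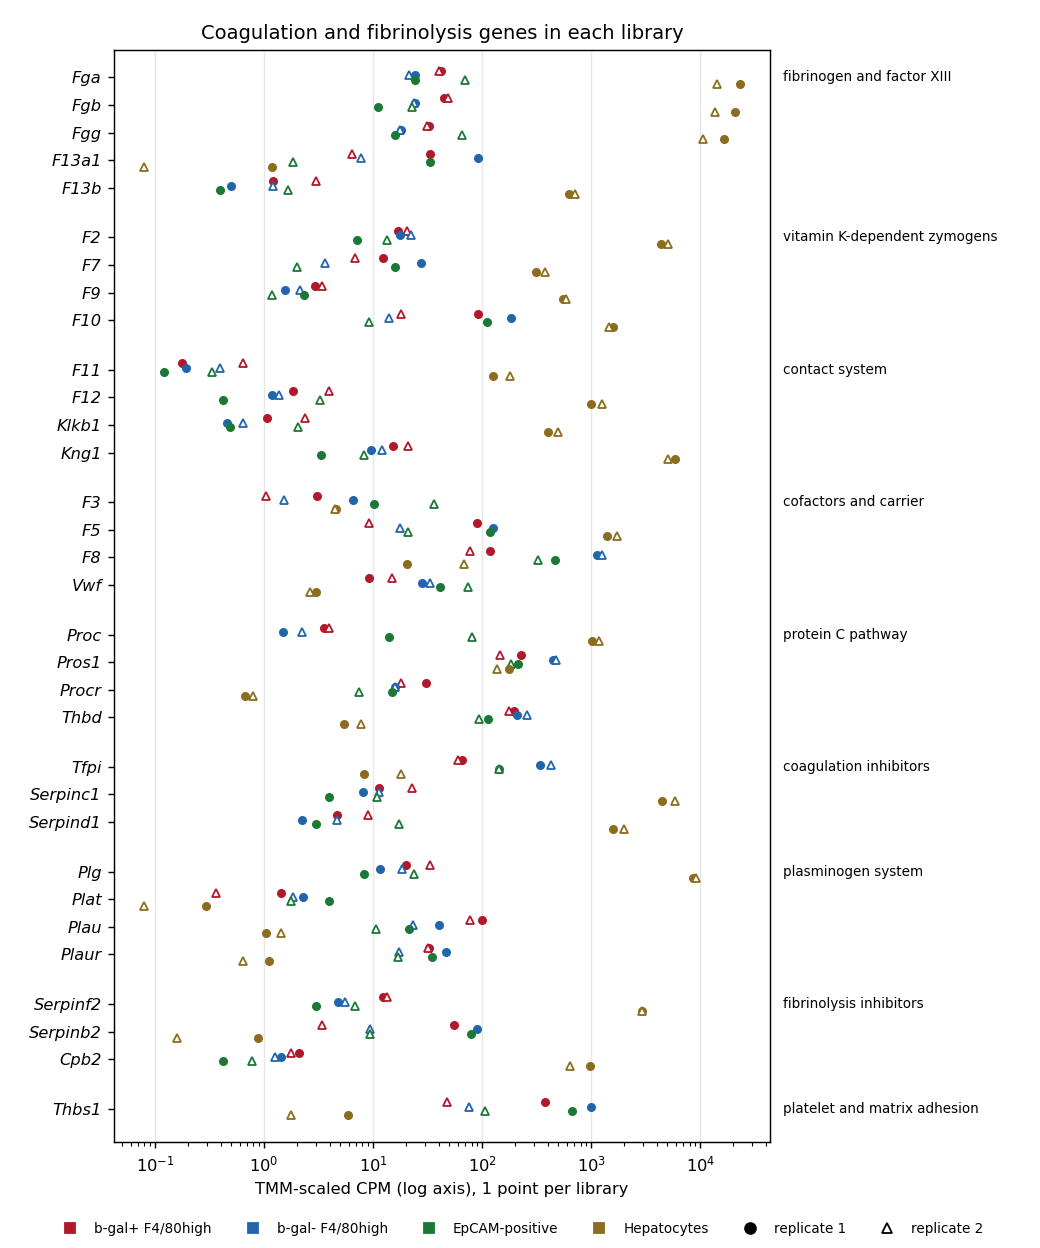
Level of each member in each of the 8 libraries, in TMM-scaled CPM on a log axis, ordered by role; color is the group, circles are replicate 1 and triangles replicate 2. The hepatocyte points of some genes, such as Fga at 23009 and 14285 CPM, lie far to the right of all sorted libraries. Those of others, such as Thbd at 5.39 and 7.74 CPM, lie to the left.

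Fibrinogen took 62.7% and 49.9% of the members' reads in the hepatocyte libraries. The 32 members together took 5.3% and 4.07% of hepatocyte reads, and the 3 fibrinogen chains alone took 3.32% and 2.03%. In the sorted libraries all 32 members took 0.103% to 0.461% of the reads. Per kilobase of principal transcript, the hepatocyte means were 7950 CPM for Fgg, 7208 CPM for Fga and 4514 CPM for Fgb, followed by Plg at 3181 CPM and Kng1 at 2976 CPM. The same 5 genes led in the same order when all exons of a gene were used as its length.

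Fga (GRCm38 chr3:83026076-83033627), which encodes the alpha chain, had 41.7 and 40.6 CPM in b-gal+ cells, 24 and 21.2 CPM in b-gal- cells, 24.1 and 69.1 CPM in EpCAM-positive cells and 23009 and 14285 CPM in hepatocytes. Both hepatocyte libraries lay far above every sorted library, and the EpCAM-positive libraries lay apart from each other. Fga was 435-fold lower in b-gal+ cells than in hepatocytes, a log2 difference of -8.77 ± 0.47 (adjusted p = 1.44e-05). It was 786-fold lower in b-gal- cells, -9.62 ± 0.47 (adjusted p = 1.09e-05), and 438-fold lower in EpCAM-positive cells, -8.78 ± 0.47 (adjusted p = 1.81e-05). The EpCAM-positive log2 difference was -8.03 without EpCAM-positive replicate 1 and -9.53 without EpCAM-positive replicate 2. Fgb (chr3:83040141-83049863), the beta chain, had 44.9 and 48.1 CPM in b-gal+ cells, 24.5 and 23.6 CPM in b-gal- cells, 11.1 and 22.9 CPM in EpCAM-positive cells and 20834 and 13564 CPM in hepatocytes. Again the groups did not overlap with hepatocytes, and log2 differences were -8.48 ± 0.35 in b-gal+ cells, -9.42 ± 0.35 in b-gal- cells and -10.00 ± 0.35 in the EpCAM-positive cells (highest adjusted p = 1e-05). Fgb was also higher in b-gal+ cells than in EpCAM-positive cells, a log2 difference of 1.51 ± 0.35 (adjusted p = 0.0168), a call that was lost without either b-gal+ library and with edgeR or only those 2 groups in the fit. Fgg (chr3:83007724-83015049), the gamma chain, had 32.6 and 31.4 CPM in b-gal+ cells, 17.9 and 17.7 CPM in b-gal- cells, 15.9 and 64.8 CPM in EpCAM-positive cells and 16357 and 10593 CPM in hepatocytes. The pattern over libraries followed that of Fga, with log2 differences of -8.66 ± 0.58, -9.49 ± 0.58 and -8.65 ± 0.58 in b-gal+, b-gal- and EpCAM-positive cells relative to hepatocytes (highest adjusted p = 3.97e-05). The EpCAM-positive value was -7.66 without EpCAM-positive replicate 1 and -9.65 without EpCAM-positive replicate 2.

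The 2 subunits of factor XIII, the transglutaminase that crosslinks fibrin, were highest in different groups. F13b (chr1:139501702-139523752), the carrier subunit, had 1.21 and 3.02 CPM in b-gal+ cells, 0.499 and 1.22 CPM in b-gal- cells, 0.395 and 1.65 CPM in EpCAM-positive cells and 623 and 708 CPM in hepatocytes. Hepatocytes were the only group with a level above a few CPM, and the log2 differences were -8.08 ± 0.54 in b-gal+ cells, -8.98 ± 0.54 in b-gal- cells and -8.91 ± 0.54 in the EpCAM-positive cells (highest adjusted p = 3.14e-05). The EpCAM-positive difference was -8.26 without EpCAM-positive replicate 1. F13a1 (chr13:36867178-37050244), the catalytic subunit, is made by cells of the monocyte, macrophage and megakaryocyte lineages. It had 33.5 and 6.40 CPM in b-gal+ cells, 92.5 and 7.73 CPM in b-gal- cells, 33.6 and 1.83 CPM in EpCAM-positive cells and 1.18 and 0.0798 CPM in hepatocytes. All sorted libraries lay above both hepatocyte libraries, which held 16 and 1 reads, but replicate 1 lay far above replicate 2 in each sorted group. It was called higher than in hepatocytes in b-gal- cells, a log2 difference of 4.81 ± 1.61 (adjusted p = 0.0354). It was not called in b-gal+ cells, at 3.95 ± 1.61 (adjusted p = 0.0724), or EpCAM-positive cells, at 3.18 ± 1.61 (adjusted p = 0.127). The b-gal- call failed without b-gal- replicate 1 or either hepatocyte library and with no filter on low counts, a pseudocount of 2 CPM or replicate 2 alone of each sorted group. Its value was 3.04 without b-gal- replicate 1, 6.54 without b-gal- replicate 2, 5.65 without hepatocyte replicate 1 and 4.02 without hepatocyte replicate 2.

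The 4 vitamin K-dependent zymogens of the procoagulant arm (F2, F7, F9 and F10) were all lower in the 3 sorted groups than in hepatocytes, but F7 and F10 by much less. F2 (chr2:91625320-91636414), prothrombin, had 16.8 and 20.4 CPM in b-gal+ cells, 17.6 and 22.1 CPM in b-gal- cells, 7.14 and 13.5 CPM in EpCAM-positive cells and 4320.5 and 5044 CPM in hepatocytes. All 6 sorted libraries lay far below hepatocytes and within a narrow range. Log2 differences from hepatocytes were -7.94 ± 0.29 in b-gal+ cells, -7.85 ± 0.29 in b-gal- cells and -8.82 ± 0.29 in the EpCAM-positive cells (highest adjusted p = 1e-05). F9 (chrX:59999464-60030759), whose loss causes hemophilia B in humans, averaged 3.16 ± 0.362 CPM in b-gal+ cells, 1.86 ± 0.409 CPM in b-gal- cells, 1.77 ± 0.809 CPM in EpCAM-positive cells and 567 ± 27.2 CPM in hepatocytes (SD, n = 2 each). It had log2 differences of -7.28 ± 0.31, -7.92 ± 0.31 and -8.01 ± 0.31 in b-gal+, b-gal- and EpCAM-positive cells (highest adjusted p = 1.01e-05). F10 (chr8:13037308-13056676), the zymogen of the protease that activates prothrombin, had 92 and 17.9 CPM in b-gal+ cells, 184 and 14 CPM in b-gal- cells, 111 and 9.23 CPM in EpCAM-positive cells and 1577 and 1452 CPM in hepatocytes. In each sorted group replicate 1 was several-fold above replicate 2, and b-gal- replicate 1 reached 12.1% of the hepatocyte mean. The log2 differences were -5.20 ± 1.52 (adjusted p = 0.0223) in b-gal+ cells, -4.87 ± 1.52 (adjusted p = 0.0269) in b-gal- cells and -5.52 ± 1.52 (adjusted p = 0.0169) in EpCAM-positive cells. The b-gal+ call failed without b-gal+ replicate 2 or either hepatocyte library. The b-gal- call failed without b-gal- replicate 2 or either hepatocyte library and with edgeR or the authors' scaling. The EpCAM-positive call was lost without EpCAM-positive replicate 2 or either hepatocyte library. The values were -6.36 without b-gal+ replicate 1 and -4.06 without b-gal+ replicate 2, -6.70 without b-gal- replicate 1 and -3.03 without b-gal- replicate 2, and -7.28 without EpCAM-positive replicate 1 and -3.76 without EpCAM-positive replicate 2. F7 (chr8:13026034-13035809), the zymogen that binds tissue factor, is the neighbour of F10 on chromosome 8. It had 12.4 and 6.84 CPM in b-gal+ cells, 27.2 and 3.62 CPM in b-gal- cells, 15.8 and 2.02 CPM in EpCAM-positive cells and 311 and 376 CPM in hepatocytes. It lay below hepatocytes in all sorted libraries. The log2 differences were -5.14 ± 1.08 (adjusted p = 0.00547) in b-gal+ cells, -5.00 ± 1.08 (adjusted p = 0.00578) in b-gal- cells and -5.74 ± 1.08 (adjusted p = 0.00332) in EpCAM-positive cells, and these remained calls when any 1 library was left out. They were -6.37 without b-gal- replicate 1 and -3.62 without b-gal- replicate 2, and -7.08 without EpCAM-positive replicate 1 and -4.39 without EpCAM-positive replicate 2.

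The contact system starts clotting on negatively charged surfaces and releases bradykinin. All 4 of its members were lower in every sorted group than in hepatocytes. Kng1 (chr16:23057865-23082078), kininogen, was the most abundant, with 15.4 and 21 CPM in b-gal+ cells, 9.56 and 12 CPM in b-gal- cells, 3.31 and 8.23 CPM in EpCAM-positive cells and 5841 and 5034 CPM in hepatocytes. Hepatocytes lay far above the sorted libraries, with log2 differences of -8.20 ± 0.38 in b-gal+ cells, -8.92 ± 0.38 in b-gal- cells and -9.88 ± 0.38 in the EpCAM-positive cells (highest adjusted p = 1.05e-05). Kng1 was also called higher in b-gal+ cells than in EpCAM-positive cells, a log2 difference of 1.68 ± 0.38 (adjusted p = 0.016). This call failed without b-gal+ replicate 2 and with only those 2 groups in the fit, and its value was 1.09 without EpCAM-positive replicate 1 and 2.27 without EpCAM-positive replicate 2. Its EpCAM-positive difference from hepatocytes was -9.28 without EpCAM-positive replicate 1 and -10.46 without EpCAM-positive replicate 2. F12 (chr13:55417958-55426793), the factor that surfaces activate, averaged 2.91 ± 1.52 CPM in b-gal+ cells, 1.28 ± 0.127 CPM in b-gal- cells, 1.86 ± 2.03 CPM in EpCAM-positive cells and 1123 ± 189.8 CPM in hepatocytes. Klkb1 (chr8:45266689-45294859), plasma prekallikrein, averaged 1.72 ± 0.919 CPM in b-gal+ cells, 0.548 ± 0.124 CPM in b-gal- cells, 1.27 ± 1.11 CPM in EpCAM-positive cells and 450.4 ± 69.3 CPM in hepatocytes. F11 (chr8:45241174-45262031), its close relative and neighbour on chromosome 8, averaged 0.411 ± 0.329 CPM in b-gal+ cells, 0.292 ± 0.141 CPM in b-gal- cells, 0.229 ± 0.152 CPM in EpCAM-positive cells and 152 ± 38.3 CPM in hepatocytes (SD, n = 2 each). For these 3 genes the log2 differences from hepatocytes ran between -9.29 ± 0.65 for F12 in b-gal- cells and -7.42 ± 0.38 for F11 in b-gal+ cells, with adjusted p at or below 5.3e-05. In EpCAM-positive cells F12 was -8.20 without EpCAM-positive replicate 1 and -10.19 without EpCAM-positive replicate 2, and Klkb1 was -7.44 without EpCAM-positive replicate 1 and -8.79 without EpCAM-positive replicate 2. The exons of Klkb1 overlap those of a readthrough gene, and Kng1 has a closely related neighbour, Kng2, so reads of these may be split by the counting.

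The cofactors and the carrier of factor VIII were highest in different groups. F5 (chr1:164151838-164220277), the cofactor of factor Xa, had 89.1 and 9.17 CPM in b-gal+ cells, 126 and 17.7 CPM in b-gal- cells, 119 and 21.1 CPM in EpCAM-positive cells and 1398 and 1724 CPM in hepatocytes. Hepatocytes lay above all sorted libraries, and replicate 1 was above replicate 2 in each sorted group. Log2 differences were -5.72 ± 1.34 (adjusted p = 0.00889) in b-gal+ cells, -5.02 ± 1.34 (adjusted p = 0.0146) in b-gal- cells and -4.94 ± 1.34 (adjusted p = 0.0161) in EpCAM-positive cells. The b-gal+ call was lost without either hepatocyte library. The b-gal- call failed without b-gal- replicate 2 or either hepatocyte library. The EpCAM-positive call was lost without EpCAM-positive replicate 2 or either hepatocyte library. The values were -7.32 without b-gal+ replicate 1 and -4.14 without b-gal+ replicate 2, -6.42 without b-gal- replicate 1 and -3.61 without b-gal- replicate 2, and -6.17 without EpCAM-positive replicate 1 and -3.71 without EpCAM-positive replicate 2.

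F8 (chrX:75172715-75382615), the cofactor whose loss causes hemophilia A in humans, was highest in b-gal- cells, with 119 and 77.6 CPM in b-gal+ cells, 1134 and 1255 CPM in b-gal- cells, 461 and 323 CPM in EpCAM-positive cells and 20.7 and 68.8 CPM in hepatocytes. Both b-gal- libraries lay above both EpCAM-positive libraries, these above both b-gal+ libraries, and hepatocytes were lowest. F8 was 12.4-fold lower in b-gal+ cells than in b-gal- cells, with a log2 difference of -3.63 ± 0.53 (adjusted p = 0.00407), and this call was kept when any 1 library was left out. It was 31.2-fold higher in b-gal- cells than in hepatocytes, a log2 difference of 4.96 ± 0.53 (adjusted p = 0.000212), and 10.1-fold higher in EpCAM-positive cells, a log2 difference of 3.34 ± 0.53 (adjusted p = 0.00153). The difference between b-gal+ cells and hepatocytes was 1.33 ± 0.53 (adjusted p = 0.0662). The hepatocyte libraries differed: the b-gal- value was 4.05 without hepatocyte replicate 1 and 5.75 without hepatocyte replicate 2, and the EpCAM-positive value 2.43 without hepatocyte replicate 1 and 4.13 without hepatocyte replicate 2. Both calls were lost with replicate 1 alone of each sorted group or replicate 2 alone of each sorted group. Sinusoidal endothelial markers followed the same order of groups, with hepatocyte replicate 2 above replicate 1 as well, and their part in the levels of F8 was not tested. F8 in b-gal+ cells was also below that in EpCAM-positive cells, a log2 difference of -2.00 ± 0.53 (adjusted p = 0.028), a call that was lost without either b-gal+ library or either EpCAM-positive library.

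Vwf (chr6:125546774-125686679), von Willebrand factor, which carries factor VIII in plasma and is typical of larger vessels, had 9.21 and 14.8 CPM in b-gal+ cells, 28.1 and 33.4 CPM in b-gal- cells, 40.8 and 74.4 CPM in EpCAM-positive cells and 3.03 and 2.63 CPM in hepatocytes. EpCAM-positive libraries were highest and hepatocytes lowest, with no overlap between groups. The log2 differences from hepatocytes were 1.87 ± 0.35 (adjusted p = 0.00306) in b-gal+ cells, 3.23 ± 0.35 (adjusted p = 0.000219) in b-gal- cells and 4.06 ± 0.35 (adjusted p = 0.000101) in EpCAM-positive cells. Vwf was lower in b-gal+ cells than in EpCAM-positive cells, a log2 difference of -2.19 ± 0.35 (adjusted p = 0.00487), and this call was kept when any 1 library was left out. It was also lower than in b-gal- cells, a log2 difference of -1.35 ± 0.35 (adjusted p = 0.0319), a call lost without either b-gal+ library, either b-gal- library or either hepatocyte library. The b-gal+ call against hepatocytes was lost with replicate 1 alone of each sorted group. Vascular endothelial markers summed to 185 and 121 CPM in b-gal+ cells, 1179.5 and 1498 CPM in b-gal- cells, 598 and 623 CPM in EpCAM-positive cells and 110.0 and 150.1 CPM in hepatocytes. That list was highest in b-gal- cells while Vwf was highest in EpCAM-positive cells. F3 (chr3:121723537-121735048), tissue factor, the cellular starter of coagulation, had 3.04 and 1.05 CPM in b-gal+ cells, 6.60 and 1.52 CPM in b-gal- cells, 10.2 and 35.9 CPM in EpCAM-positive cells and 4.58 and 4.47 CPM in hepatocytes. Both EpCAM-positive libraries lay above all others, and the b-gal- libraries lay on either side of the hepatocyte ones. F3 was lower in b-gal+ cells than in EpCAM-positive cells, a log2 difference of -3.08 ± 0.80 (adjusted p = 0.026), and its difference between EpCAM-positive cells and hepatocytes was 1.97 ± 0.80 (adjusted p = 0.0658). The b-gal+ call was lost without either b-gal+ library, EpCAM-positive replicate 2 or either hepatocyte library and with only those 2 groups in the fit. Its value was -3.94 without EpCAM-positive replicate 1, -2.18 without EpCAM-positive replicate 2, -3.67 without b-gal+ replicate 1 and -2.45 without b-gal+ replicate 2. Cholangiocyte markers summed to 659.6 and 58.9 CPM in b-gal+ cells, 1269 and 86.3 CPM in b-gal- cells, 2076 and 6692 CPM in EpCAM-positive cells and 209 and 80.3 CPM in hepatocytes. Spp1 alone made up most of this sum in the sorted libraries, and the other 9 markers summed to 4.47 and 5.47 CPM in b-gal+ cells, 5.45 and 7.73 CPM in b-gal- cells, 239 and 1007 CPM in EpCAM-positive cells and 95.9 and 70.3 CPM in hepatocytes. EpCAM-positive replicate 2 held the most of these markers as well as the most F3, and their part in F3 was not tested. In b-gal+ replicate 1, Epcam and 3 other markers of this list were at 0 reads.

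**Figure D2:**
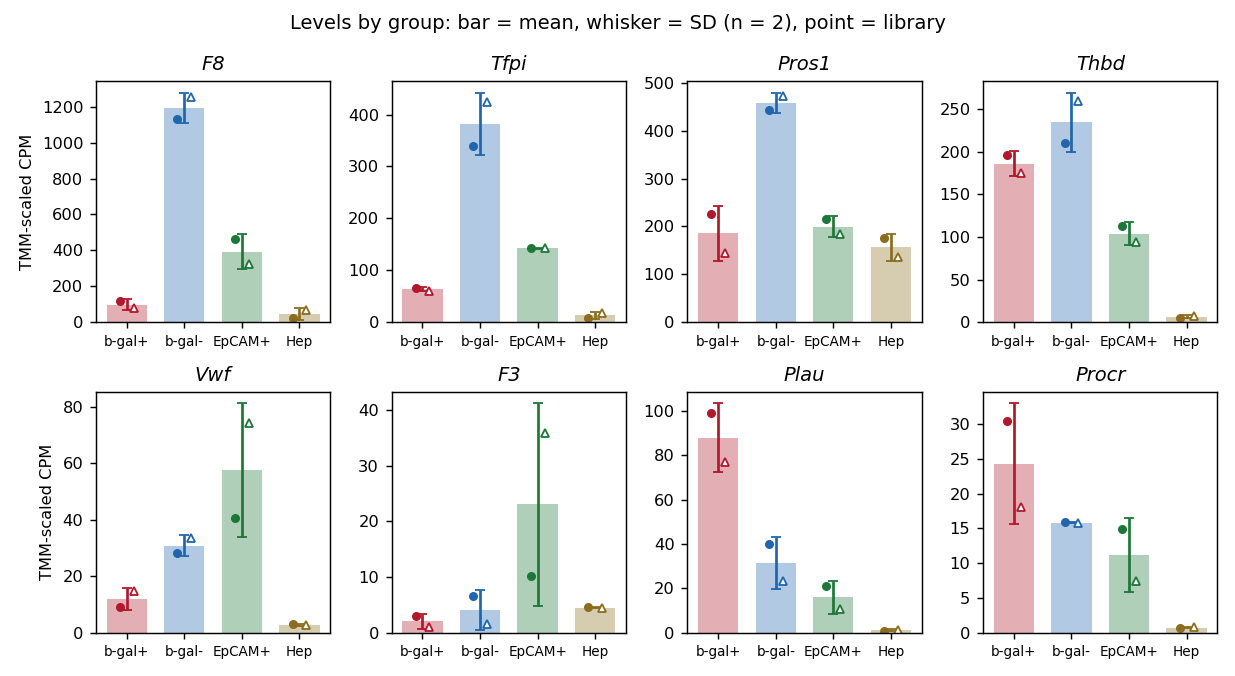
Levels of 8 members that were not highest in hepatocytes, in TMM-scaled CPM on linear axes that start at 0; bars are means, whiskers SD (n = 2), circles replicate 1 and triangles replicate 2. F8, Tfpi and Pros1 peak in b-gal- cells, Vwf and F3 in EpCAM-positive cells, and Plau and Procr in b-gal+ cells.

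The protein C pathway, in which thrombin bound to thrombomodulin activates protein C, was divided between hepatocytes and the other cells. Proc (chr18:32123126-32139570), protein C, had 3.58 and 3.94 CPM in b-gal+ cells, 1.5 and 2.25 CPM in b-gal- cells, 14.1 and 81.5 CPM in EpCAM-positive cells and 1021 and 1189 CPM in hepatocytes. Hepatocytes were highest, and both EpCAM-positive libraries lay above all F4/80high libraries. The log2 differences from hepatocytes were -8.02 ± 0.70 (adjusted p = 9.29e-05) in b-gal+ cells, -8.88 ± 0.70 (adjusted p = 5.58e-05) in b-gal- cells and -4.99 ± 0.70 (adjusted p = 0.000897) in EpCAM-positive cells. Proc was lower in b-gal+ cells than in EpCAM-positive cells, a log2 difference of -3.02 ± 0.70 (adjusted p = 0.0178), and lower in b-gal- cells than in EpCAM-positive cells, a log2 difference of -3.89 ± 0.70 (adjusted p = 0.0224). The EpCAM-positive difference from hepatocytes was -3.75 without EpCAM-positive replicate 1 and -6.23 without EpCAM-positive replicate 2. The b-gal+ difference from EpCAM-positive cells was -4.25 without EpCAM-positive replicate 1 and -1.77 without EpCAM-positive replicate 2, and its call was lost without either b-gal+ library and with only those 2 groups in the fit. The b-gal- difference was -5.11 without EpCAM-positive replicate 1 and -2.62 without EpCAM-positive replicate 2, and its call failed without b-gal+ replicate 1, either b-gal- library or either hepatocyte library and with only those 2 groups in the fit. EpCAM-positive replicate 2, where Proc reached 7.37% of its hepatocyte mean, also held the most hepatocyte and cholangiocyte marker RNA of the sorted libraries, and its median hepatocyte marker stood at 0.282% of the hepatocyte mean.

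Pros1 (chr16:62854307-62929346), protein S, the cofactor of activated protein C, had 226 and 145 CPM in b-gal+ cells, 442 and 473 CPM in b-gal- cells, 215 and 184 CPM in EpCAM-positive cells and 176 and 136 CPM in hepatocytes. Every group held it at a substantial level, with both b-gal- libraries above all others. It was 2.52-fold lower in b-gal+ cells than in b-gal- cells, a log2 difference of -1.34 ± 0.25 (adjusted p = 0.0103). It was higher in b-gal- cells than in EpCAM-positive cells, a log2 difference of 1.20 ± 0.25 (adjusted p = 0.0295), and than in hepatocytes, a log2 difference of 1.56 ± 0.25 (adjusted p = 0.00141). The first of these calls was lost without replicate 2 of either F4/80high group. The second was lost without either b-gal- library, EpCAM-positive replicate 2 or either hepatocyte library and with the authors' scaling or only those 2 groups in the fit, and the last with replicate 1 alone of each sorted group. Differences from hepatocytes were 0.22 ± 0.25 (adjusted p = 0.479) in b-gal+ cells and 0.36 ± 0.25 (adjusted p = 0.245) in EpCAM-positive cells.

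Thbd (chr2:148404466-148408188), thrombomodulin, had 197 and 175 CPM in b-gal+ cells, 210.0 and 259 CPM in b-gal- cells, 113 and 94.2 CPM in EpCAM-positive cells and 5.39 and 7.74 CPM in hepatocytes. Every sorted library lay far above both hepatocyte libraries. Thbd was 26.7-fold higher in b-gal+ cells, a log2 difference of 4.74 ± 0.21 (adjusted p = 9.9e-06). It was 33.6-fold higher in b-gal- cells, a log2 difference of 5.07 ± 0.21 (adjusted p = 8.85e-06), and 14.9-fold higher in EpCAM-positive cells, a log2 difference of 3.90 ± 0.21 (adjusted p = 1.94e-05). It was also higher in b-gal+ cells than in EpCAM-positive cells, a log2 difference of 0.84 ± 0.21 (adjusted p = 0.023), and in b-gal- cells than in EpCAM-positive cells, a log2 difference of 1.17 ± 0.21 (adjusted p = 0.0223). The first of these was lost without either b-gal+ library or EpCAM-positive replicate 2 and with the authors' scaling or only those 2 groups in the fit. The second was lost without b-gal+ replicate 2, either b-gal- library, EpCAM-positive replicate 2 or hepatocyte replicate 2 and with only those 2 groups in the fit. The sinusoidal endothelial marker sums were far lower in b-gal+ than in b-gal- cells, while the difference of Thbd between these groups was -0.33 ± 0.21 (adjusted p = 0.327). Procr (chr2:155751117-155755471), the endothelial protein C receptor, had 30.5 and 18.1 CPM in b-gal+ cells, 15.9 and 15.8 CPM in b-gal- cells, 15 and 7.48 CPM in EpCAM-positive cells and 0.665 and 0.798 CPM in hepatocytes. The b-gal+ libraries were highest and hepatocytes were near 0. Log2 differences from hepatocytes were 4.29 ± 0.39 (adjusted p = 0.000111) in b-gal+ cells, 3.73 ± 0.39 (adjusted p = 0.000198) in b-gal- cells and 3.17 ± 0.39 (adjusted p = 0.000492) in EpCAM-positive cells. Between b-gal+ and b-gal- cells the difference was 0.56 ± 0.39 (adjusted p = 0.372).

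Among the inhibitors, tissue factor pathway inhibitor stood on the non-hepatocyte side and both serpins on the hepatocyte side. Tfpi (chr2:84432855-84476775), which blocks the complex of tissue factor and factor VIIa, had 65.7 and 60.3 CPM in b-gal+ cells, 339.7 and 425 CPM in b-gal- cells, 143 and 142 CPM in EpCAM-positive cells and 8.27 and 18.2 CPM in hepatocytes. The 4 groups did not overlap, with b-gal- cells highest and hepatocytes lowest. Tfpi was 6.00-fold lower in b-gal+ cells than in b-gal- cells, a log2 difference of -2.58 ± 0.33 (adjusted p = 0.00258), and as with F8 this call was kept when any 1 library was left out. It was higher than in hepatocytes in b-gal+ cells, a log2 difference of 2.31 ± 0.33 (adjusted p = 0.00091), in b-gal- cells, a log2 difference of 4.89 ± 0.33 (adjusted p = 3.01e-05), and in EpCAM-positive cells, a log2 difference of 3.48 ± 0.33 (adjusted p = 0.000157). The hepatocyte libraries differed for Tfpi as they did for F8: the b-gal- value was 4.29 without hepatocyte replicate 1, and the EpCAM-positive value 2.89 without hepatocyte replicate 1. The b-gal+ and EpCAM-positive calls against hepatocytes were lost with replicate 1 alone of each sorted group or replicate 2 alone of each sorted group. Against EpCAM-positive cells it was lower in b-gal+ cells, a log2 difference of -1.18 ± 0.33 (adjusted p = 0.0347), and higher in b-gal- cells, a log2 difference of 1.41 ± 0.33 (adjusted p = 0.0406). The b-gal+ call against EpCAM-positive cells was lost without either b-gal+ library, either b-gal- library or either EpCAM-positive library. That of b-gal- cells was lost without either b-gal+ library, either b-gal- library, either EpCAM-positive library or hepatocyte replicate 2 and with edgeR, the authors' scaling, no filter on low counts or only those 2 groups in the fit. Serpinc1 (chr1:160978585-161005863), antithrombin, the main inhibitor of thrombin and factor Xa, had 11.2 and 22.6 CPM in b-gal+ cells, 8.06 and 11.3 CPM in b-gal- cells, 3.95 and 10.9 CPM in EpCAM-positive cells and 4439 and 5811 CPM in hepatocytes. Hepatocytes were far above every sorted library, with log2 differences of -8.27 ± 0.50 in b-gal+ cells, -8.98 ± 0.50 in b-gal- cells and -9.48 ± 0.50 in the EpCAM-positive cells (highest adjusted p = 2.07e-05). The last was -8.80 without EpCAM-positive replicate 1 and -10.15 without EpCAM-positive replicate 2. Its exons overlap those of an antisense gene, Zbtb37, and whether strand was used in counting is not given in the sources used here. Serpind1 (chr16:17331371-17343575), heparin cofactor II, averaged 6.79 ± 3.02 CPM in b-gal+ cells, 3.44 ± 1.71 CPM in b-gal- cells, 10.2 ± 10.2 CPM in EpCAM-positive cells and 1773 ± 288 CPM in hepatocytes (SD, n = 2 each). It had log2 differences of -7.98 ± 0.75, -8.88 ± 0.75 and -7.80 ± 0.75 in b-gal+, b-gal- and EpCAM-positive cells (highest adjusted p = 0.000162). The last was -6.62 without EpCAM-positive replicate 1 and -8.97 without EpCAM-positive replicate 2.

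In the plasminogen system the zymogen was highest in hepatocytes and the activators were lowest there. Plg (chr17:12378608-12419385), plasminogen, had 20.2 and 32.9 CPM in b-gal+ cells, 11.6 and 18.5 CPM in b-gal- cells, 8.24 and 23.8 CPM in EpCAM-positive cells and 8487 and 9053 CPM in hepatocytes. Hepatocytes lay far above the sorted libraries, with log2 differences of -8.38 ± 0.49 in b-gal+ cells, -9.18 ± 0.49 in b-gal- cells and -9.23 ± 0.49 in the EpCAM-positive cells (highest adjusted p = 1.89e-05). The last was -8.50 without EpCAM-positive replicate 1 and -9.97 without EpCAM-positive replicate 2. Plau (chr14:20836660-20843385), urokinase-type plasminogen activator, had 99 and 76.9 CPM in b-gal+ cells, 39.9 and 23.2 CPM in b-gal- cells, 21.3 and 10.6 CPM in EpCAM-positive cells and 1.03 and 1.44 CPM in hepatocytes. Both b-gal+ libraries were highest, and every sorted library was above hepatocytes. Plau was 50.9-fold higher in b-gal+ cells than in hepatocytes, a log2 difference of 5.67 ± 0.40 (adjusted p = 3.8e-05). It was 17.9-fold higher in b-gal- cells, a log2 difference of 4.17 ± 0.40 (adjusted p = 0.000129), and 9.02-fold higher in EpCAM-positive cells, a log2 difference of 3.17 ± 0.40 (adjusted p = 0.00054). It was 5.65-fold higher in b-gal+ cells than in EpCAM-positive cells, a log2 difference of 2.50 ± 0.40 (adjusted p = 0.00499), a call kept in every leave-one-out fit. It was 2.84-fold higher in b-gal+ than in b-gal- cells, a log2 difference of 1.5 ± 0.40 (adjusted p = 0.036), but this was lost without either b-gal+ library, b-gal- replicate 2 or either hepatocyte library and with the authors' scaling.

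Plaur (chr7:24462484-24475968), the receptor that holds urokinase at the cell surface, had 32.5 and 31.9 CPM in b-gal+ cells, 46.5 and 17.4 CPM in b-gal- cells, 35.1 and 17 CPM in EpCAM-positive cells and 1.11 and 0.639 CPM in hepatocytes. The sorted groups overlapped with each other, and all lay above hepatocytes. The log2 differences were 4.60 ± 0.52 (adjusted p = 0.000294) in b-gal+ cells, 4.42 ± 0.52 (adjusted p = 0.000334) in b-gal- cells and 4.20 ± 0.52 (adjusted p = 0.000496) in EpCAM-positive cells. The b-gal- value was 3.72 without b-gal- replicate 1 and 5.11 without b-gal- replicate 2. Plat (chr8:22757727-22782844), tissue-type plasminogen activator, was low in every group, with 1.43 and 0.362 CPM in b-gal+ cells, 2.27 and 1.86 CPM in b-gal- cells, 3.92 and 1.76 CPM in EpCAM-positive cells and 0.295 and 0.0798 CPM in hepatocytes. The hepatocyte libraries held 4 and 1 reads. It was called higher than in hepatocytes in b-gal- cells, a log2 difference of 1.91 ± 0.50 (adjusted p = 0.0129), and in EpCAM-positive cells, a log2 difference of 2.22 ± 0.50 (adjusted p = 0.00714). The b-gal- call failed without b-gal- replicate 1 or hepatocyte replicate 2 and the EpCAM-positive call without hepatocyte replicate 2.

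Of the 3 fibrinolysis inhibitors, 2 were highest in hepatocytes. Serpinf2 (chr11:75431732-75439591), alpha-2-antiplasmin, had 12.3 and 13.5 CPM in b-gal+ cells, 4.76 and 5.58 CPM in b-gal- cells, 3.01 and 6.88 CPM in EpCAM-positive cells and 2939 and 2898 CPM in hepatocytes. The hepatocyte libraries were nearly equal, and log2 differences from them were -7.76 ± 0.33 in b-gal+ cells, -9.01 ± 0.33 in b-gal- cells and -9.16 ± 0.33 in the EpCAM-positive cells (highest adjusted p = 1e-05). The median hepatocyte marker stood at 0.115% and 0.242% of its hepatocyte mean in b-gal+ cells. It stood at 0.084% and 0.122% in b-gal- cells and 0.0747% and 0.282% in EpCAM-positive cells. The part of hepatocyte RNA in the Serpinf2 levels of sorted cells was not tested. Among the sorted groups Serpinf2 was higher in b-gal+ cells than in b-gal- cells, a log2 difference of 1.25 ± 0.33 (adjusted p = 0.034), and than in EpCAM-positive cells, a log2 difference of 1.40 ± 0.33 (adjusted p = 0.0179). The first call was lost without either b-gal+ library, either b-gal- library or either hepatocyte library and with edgeR or the authors' scaling, and the second without either b-gal+ library and with only those 2 groups in the fit. Cpb2 (chr14:75242287-75283555), a carboxypeptidase that removes plasminogen binding sites from fibrin, averaged 1.94 ± 0.235 CPM in b-gal+ cells, 1.35 ± 0.105 CPM in b-gal- cells, 0.605 ± 0.254 CPM in EpCAM-positive cells and 802 ± 235 CPM in hepatocytes (SD, n = 2 each). It had log2 differences of -8.34 ± 0.31, -8.73 ± 0.31 and -9.49 ± 0.31 in b-gal+, b-gal- and EpCAM-positive cells relative to hepatocytes (highest adjusted p = 1e-05). Its difference between b-gal+ and EpCAM-positive cells, 1.16 ± 0.31 (adjusted p = 0.029), rests on 14 to 47 reads a library. Its call was lost without either b-gal+ library, either b-gal- library or EpCAM-positive replicate 1 and with a pseudocount of 2 CPM or only those 2 groups in the fit. Serpinb2 (chr1:107511423-107535478), plasminogen activator inhibitor 2, a product of activated macrophages, had 55.5 and 3.38 CPM in b-gal+ cells, 89.6 and 9.44 CPM in b-gal- cells, 79.4 and 9.35 CPM in EpCAM-positive cells and 0.886 and 0.16 CPM in hepatocytes. Hepatocytes held 12 and 2 reads, and replicate 1 far exceeded replicate 2 in each sorted group. It was called higher than in hepatocytes in b-gal- cells, a log2 difference of 4.97 ± 1.62 (adjusted p = 0.0317), and in EpCAM-positive cells, a log2 difference of 4.87 ± 1.62 (adjusted p = 0.0345). The value in b-gal+ cells was 3.95 ± 1.62 (adjusted p = 0.0735). The b-gal- call failed without b-gal- replicate 1 or either hepatocyte library and with a pseudocount of 2 CPM or replicate 2 alone of each sorted group. The EpCAM-positive call was lost without EpCAM-positive replicate 1 or either hepatocyte library and with a pseudocount of 2 CPM or replicate 2 alone of each sorted group. The values were 3.36 without b-gal- replicate 1, 6.54 without b-gal- replicate 2 and 5.56 without hepatocyte replicate 1, and 3.32 without EpCAM-positive replicate 1, 6.34 without EpCAM-positive replicate 2 and 5.48 without hepatocyte replicate 1.

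Thbs1 (chr2:118111876-118127133), thrombospondin 1, a matrix protein that platelets also store, had 379 and 47.2 CPM in b-gal+ cells, 992 and 76.5 CPM in b-gal- cells, 665 and 105 CPM in EpCAM-positive cells and 5.91 and 1.76 CPM in hepatocytes. All sorted libraries lay above hepatocytes, with a wide gap between replicates. The log2 differences were 5.15 ± 1.53 (adjusted p = 0.024) in b-gal+ cells, 6.18 ± 1.53 (adjusted p = 0.0106) in b-gal- cells and 6.13 ± 1.53 (adjusted p = 0.0115) in EpCAM-positive cells. In b-gal+ cells it was 3.65 without b-gal+ replicate 1, 6.62 without b-gal+ replicate 2, 5.91 without hepatocyte replicate 1 and 4.37 without hepatocyte replicate 2. In b-gal- cells it was 4.34 without b-gal- replicate 1, 8.03 without b-gal- replicate 2, 6.91 without hepatocyte replicate 1 and 5.37 without hepatocyte replicate 2. In EpCAM-positive cells it was 4.78 without EpCAM-positive replicate 1, 7.44 without EpCAM-positive replicate 2, 6.86 without hepatocyte replicate 1 and 5.32 without hepatocyte replicate 2. The b-gal+ call of Thbs1 was lost without b-gal+ replicate 1 or either hepatocyte library and with replicate 2 alone of each sorted group. In b-gal- cells it was lost without b-gal- replicate 1 or hepatocyte replicate 2 and with replicate 2 alone of each sorted group. The EpCAM-positive call was lost without EpCAM-positive replicate 1 or hepatocyte replicate 2 and with replicate 2 alone of each sorted group. Platelet and megakaryocyte markers summed to 18.6 to 37.3 CPM in the sorted libraries against 10.8 and 9.42 CPM in hepatocytes.

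**Figure D3:**
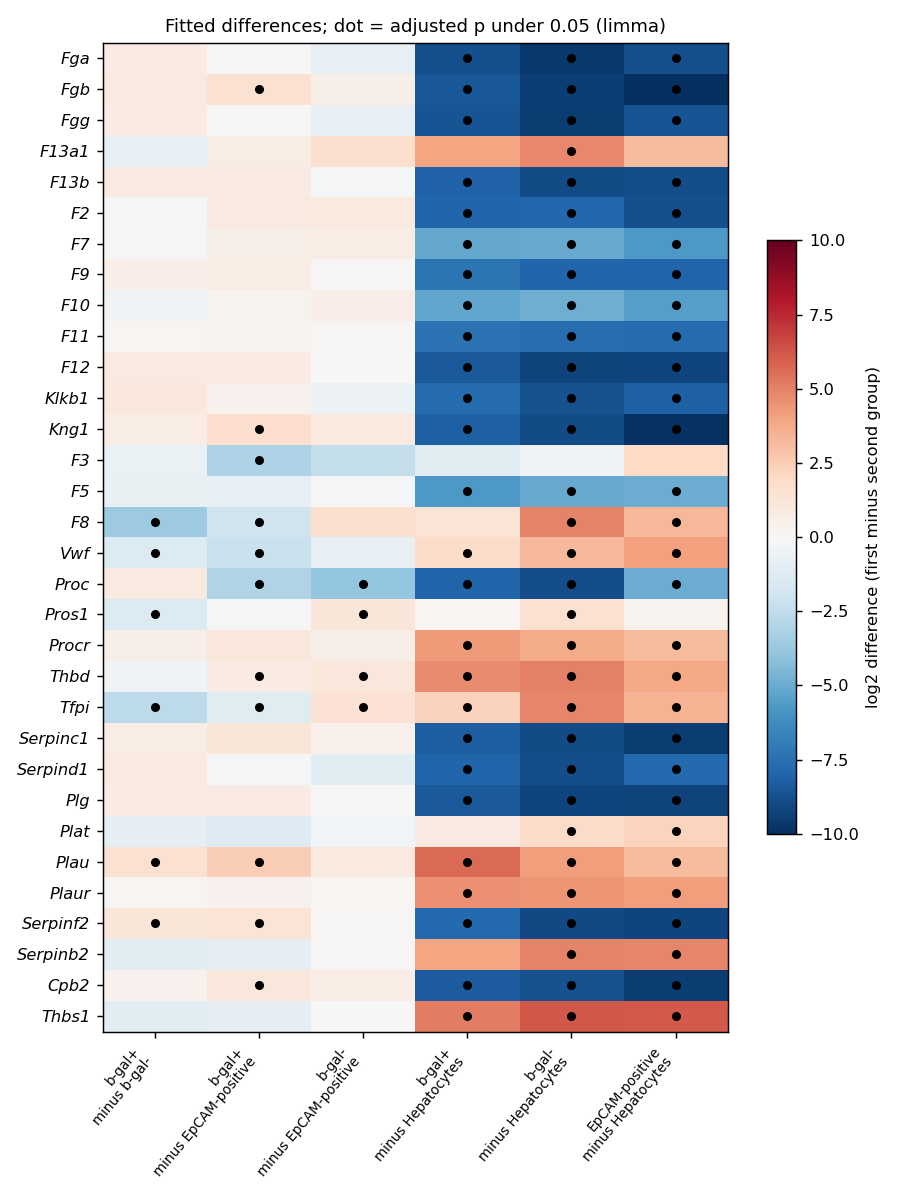
Fitted log2 difference of each member (rows) in the 6 comparisons (columns, first group minus second), with red for higher and blue for lower in the first group; dots mark an adjusted p under 0.05. The 3 columns against hepatocytes hold 19 blue dots each, and the 3 columns among sorted groups hold 6, 11 and 4 dots.

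Among the sorted groups far fewer members differed. Between b-gal+ and b-gal- cells, 2 members were higher (Plau and Serpinf2) and 4 lower (F8, Vwf, Pros1 and Tfpi) in b-gal+ cells, beside 10.4% and 13% of all genes, and the member median was 0.29 beside -0.02 over all genes. Between b-gal+ and EpCAM-positive cells, 6 were higher (Fgb, Kng1, Thbd, Plau, Serpinf2 and Cpb2) and 5 lower (F3, F8, Vwf, Proc and Tfpi) in b-gal+ cells, beside 14.7% and 17.9%, with a member median of 0.41 beside -0.03. Between b-gal- and EpCAM-positive cells, 3 were higher (Pros1, Thbd and Tfpi) and 1 lower (Proc) in b-gal- cells, beside 5.63% and 6.57%, with a member median of 0.14 beside 0.07. The members' shares of 6.25% and 12.5%, 18.8% and 15.6%, and 9.38% and 3.12% stood near these backgrounds. With the authors' scaling the all-gene medians became -0.16, -0.33 and -0.08. All genes were then called higher and lower in 1111 and 2304 cases in the first comparison, 1285 and 3741 in the second and 372 and 1084 in the third, against 1491 and 1867, 2111 and 2574, and 811 and 946 with TMM. These 3 comparisons share libraries with each other. The calls kept in every leave-one-out fit and every other planned setting were F8 and Tfpi in the first comparison and Vwf and Plau in the second, and each of the 4 in the third was lost in at least 1. Most calls among the sorted groups were lost with replicate 1 alone or replicate 2 alone of each sorted group. These settings were chosen after the data were seen. They leave 1 library in each sorted group and take their spread from the hepatocyte pair. Such fits therefore cannot show whether a call among the sorted groups holds. A leave-one-out fit also leaves 1 library in a group. With only b-gal- and EpCAM-positive cells in the fit, 0 of all 14404 genes were called between them. A call lost in that fit therefore cannot single out a member. With only b-gal+ and EpCAM-positive cells in the fit, 1063 of all 14404 genes were called higher and 1214 lower in b-gal+ cells. Of the members, 1 was still called higher and 3 lower there, in place of 6 and 5.

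The 19 members that were lower in all 3 sorted groups were still detected there, and their levels were set beside those of the 14 hepatocyte markers, each as a percentage of its own hepatocyte mean. The median marker stood at 0.115% and 0.242% in the b-gal+ libraries, 0.084% and 0.122% in the b-gal- libraries, and 0.0747% and 0.282% in the EpCAM-positive libraries. The median of the 19 members was 0.262% and 0.436% in b-gal+ cells, 0.142% and 0.211% in the b-gal- cells, and 0.108% and 0.288% in EpCAM-positive cells. Albumin, the most abundant of the markers, stood at 0.135% and 0.348%, 0.0839% and 0.203%, and 0.396% and 2.86% in the same libraries. Of the 19 members, 7 and 15 lay above the highest of the markers in the b-gal+ libraries, 7 and 7 in the b-gal- libraries, and 3 and 1 in the EpCAM-positive libraries, and the part of hepatocyte RNA in their levels was not tested. Picked out after their values were seen, F2, F5, F7, F9 and F10 lay above the highest of the 14 markers in all 4 F4/80high libraries, and F5, F7 and F10 did so in EpCAM-positive replicate 1 as well. F10 stood, as a share of its hepatocyte mean, at 6.08% and 1.18% in b-gal+ cells, 12.1% and 0.927% in the b-gal- cells, and 7.35% and 0.61% in EpCAM-positive cells. F5 stood at 5.71% and 0.587% in b-gal+ cells, 8.09% and 1.13% in the b-gal- cells, and 7.59% and 1.35% in EpCAM-positive cells. F7 stood at 3.60% and 1.99% in b-gal+ cells, 7.92% and 1.05% in the b-gal- cells, and 4.59% and 0.587% in EpCAM-positive cells. Replicate 1 was the higher library of each pair for F10 and F5. In EpCAM-positive replicate 2 only Proc lay above the highest marker, which stood at 7.01%.

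**Figure D4:**
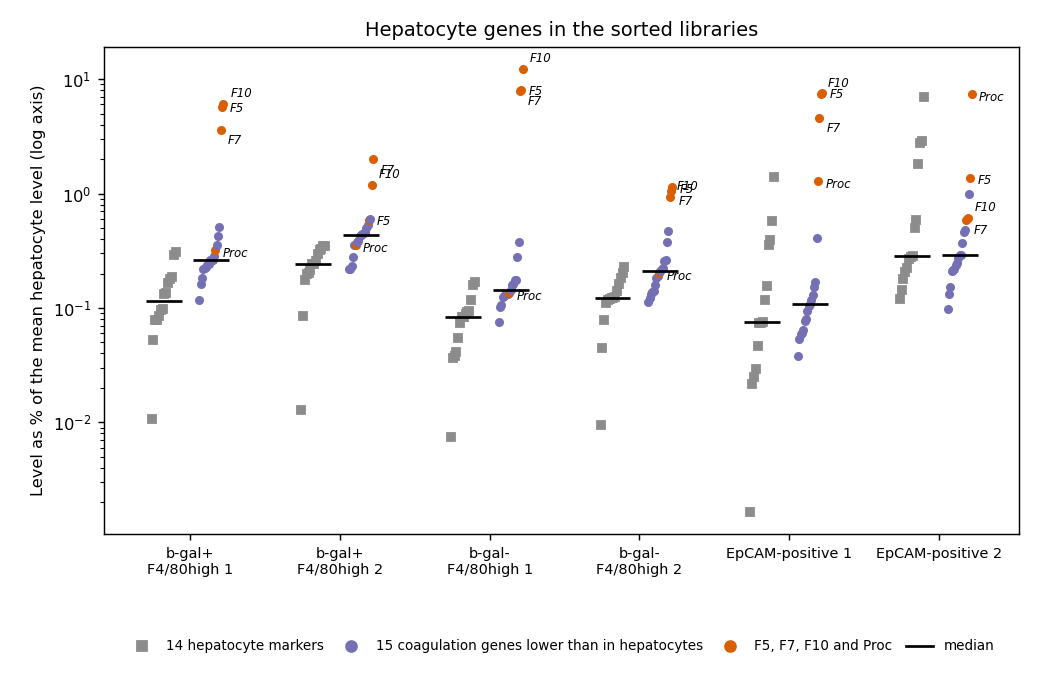
Level of 14 hepatocyte markers (gray squares) and of the 19 members lower than in hepatocytes (circles) in each sorted library, as a percentage of the mean hepatocyte level on a log axis; black bars are medians. Member medians lie between 0.108% and 0.436%, while F10, F5 and F7 (orange) stand apart in the replicate 1 libraries and Proc in EpCAM-positive replicate 2.

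Some members differed widely between the libraries of each sorted group. In all 3 sorted groups, 5 of 32 members (15.6%) were over 3 times as high in replicate 1 as in replicate 2: F13a1, F10, F5, Serpinb2 and Thbs1. Of all 14404 genes tested, 58 (0.403%) met this and 4 met the opposite. The ratios, on CPM + 0.5, were 4.92, 11.3 and 14.6 for F13a1, 5.03, 12.7 and 11.5 for F10, and 9.27, 6.98 and 5.51 for F5 in b-gal+, b-gal- and EpCAM-positive cells. They were 14.4, 9.06 and 8.11 for Serpinb2 and 7.97, 12.9 and 6.29 for Thbs1. F7 did not meet this, with 1.76 in b-gal+ cells, but had 6.73 and 6.47 in b-gal- and EpCAM-positive cells. In hepatocytes the ratio was 1.09 for F10 and 0.811 for F5, but 2.9 for F13a1, 2.84 for Thbs1 and 2.1 for Serpinb2. The last 3 were low in hepatocytes, with means of 0.631, 3.83 and 0.523 CPM. The 3 fibrinogen chains had ratios of 0.932 to 1.13 in the F4/80high groups and 0.251 to 0.494 in EpCAM-positive cells. This pattern, the threshold of 3 and the genes named with it were chosen after the values were seen, and no test was made between replicates.

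Markers of several other cell types also differed between replicates, not all in the same direction. The 6 monocyte markers other than Fn1 summed to 301 and 90.3 CPM in b-gal+ cells, 758 and 165 CPM in b-gal- cells and 620.1 and 132 CPM in EpCAM-positive cells, against 14 and 10.1 CPM in hepatocytes. Each was higher in replicate 1 in all 3 groups. Fn1, fibronectin, which hepatocytes also express at 6085 and 5846 CPM, did the same. The 6 neutrophil markers summed to 101 and 7.96 CPM in b-gal+ cells, 299 and 15.4 CPM in b-gal- cells and 301 and 14.7 CPM in EpCAM-positive cells, against 6.57 and 1.60 CPM in hepatocytes, again with each one higher in replicate 1. S100a8, S100a9, Chil3, Saa3 and Slpi were among the 58 genes, as were the 4 Y-linked ones. Of 6 genes of large peritoneal macrophages, a list added after the data were seen, 6, 5 and 5 were higher in replicate 1 of b-gal+, b-gal- and EpCAM-positive cells, with summed ratios of 5.38, 1.7 and 1.58, and Prg4 and Alox15 were among the 58. Of 10 stellate cell markers, 9, 7 and 8 were higher there, with ratios of 3.53, 1.3 and 1.34. Mesothelial markers had ratios of 3.44, 2.03 and 0.355. Kupffer cell markers had ratios of 1.09, 1.5 and 5.16, and sinusoidal endothelial markers 1.36, 0.853 and 1.18. For B cell markers the ratios were 0.79, 0.572 and 2.59, and for T and NK cell markers 0.639, 0.222 and 2.4. Hepatocyte markers ran the other way, with sums in replicate 1 that were 0.462, 0.473 and 0.15 times those in replicate 2. The part of these cells, of mouse sex and of the library itself in the 5 members was not tested.

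**Figure D5:**
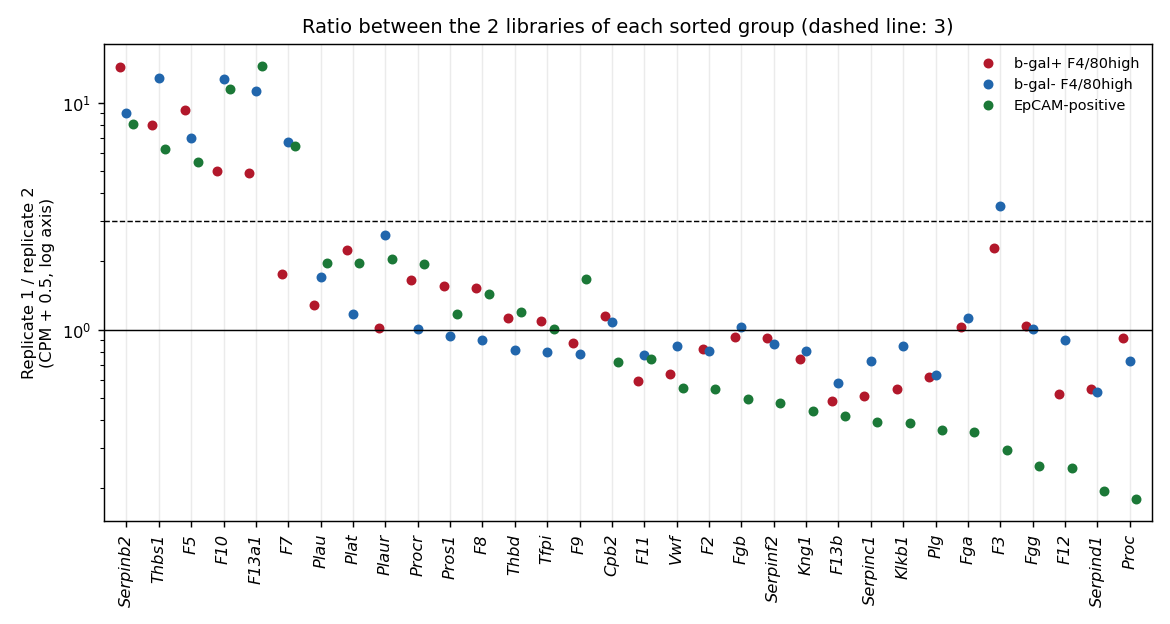
Ratio of replicate 1 to replicate 2 for each member in the 3 sorted groups, on CPM + 0.5 and a log axis; the dashed line is at 3 and the solid line at 1. Serpinb2, Thbs1, F5, F10 and F13a1 lie above 3 in all 3 groups, and the fibrinogen chains lie near or below 1.

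The genes around the cascade were taken from 5 lists, and their calls were not followed under the other settings. Of all genes, 29.5% were higher and 29.6% lower than in hepatocytes in b-gal+ cells. The shares were 33.5% and 29.7% in b-gal- cells and 33.5% and 29.1% in EpCAM-positive cells. Between b-gal+ and b-gal- cells they were 10.4% and 13%. With lists of 3 to 8 genes, a count near these shares says little about a list. All 3 genes of the vitamin K cycle, which carboxylates factors II, VII, IX and X and proteins C and S, were lower in every sorted group than in hepatocytes. Ggcx, the carboxylase, was lower, with log2 differences of -3.40 ± 0.17 (adjusted p = 1.23e-05) in b-gal+ cells, -2.45 ± 0.17 (adjusted p = 3.4e-05) in b-gal- cells and -2.76 ± 0.17 (adjusted p = 2.97e-05) in EpCAM-positive cells. Vkorc1, the warfarin-sensitive reductase, was lower, with differences of -3.23 ± 0.20 (adjusted p = 2.18e-05), -3.58 ± 0.20 (adjusted p = 1.45e-05) and -3.70 ± 0.20 (adjusted p = 1.79e-05) in the same groups. For Vkorc1l1, its relative, they were -1.24 ± 0.14 (adjusted p = 0.000332), -1.34 ± 0.14 (adjusted p = 0.000222) and -1.42 ± 0.14 (adjusted p = 0.000211). Ggcx was also lower in b-gal+ than in b-gal- cells, a log2 difference of -0.95 ± 0.17 (adjusted p = 0.00884). The exons of Vkorc1 overlap those of a readthrough gene.

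Of the 7 genes for export and clearance of factor VIII and von Willebrand factor, 1 was higher and 4 lower in b-gal+ cells than in hepatocytes, and 1 was higher and 5 lower in both other sorted groups. Asgr1 and Asgr2, the asialoglycoprotein receptor of hepatocytes, were lower, with log2 differences of -8.89 ± 0.54 and -7.07 ± 0.36 in b-gal+ cells, -9.60 ± 0.54 and -8.33 ± 0.36 in the b-gal- cells, and -9.16 ± 0.54 and -7.56 ± 0.36 in EpCAM-positive cells (highest adjusted p = 2.56e-05). Stab2, a scavenger receptor of sinusoidal endothelium and also a member of that marker list, had 901 and 718 CPM in b-gal+ cells, 3710.3 and 4187 CPM in b-gal- cells, 1513 and 1221 CPM in EpCAM-positive cells and 71.1 and 196 CPM in hepatocytes. It was higher than in hepatocytes in all 3 sorted groups, with log2 differences of 2.76 ± 0.48, 5.05 ± 0.48 and 3.52 ± 0.48 (highest adjusted p = 0.00221). It was lower in b-gal+ than in b-gal- cells, a log2 difference of -2.29 ± 0.48 (adjusted p = 0.0156). Lrp1, a clearance receptor for factor VIII and for complexes of activators with their inhibitors, had 4402 and 3316 CPM in b-gal+ cells, 1164 and 456 CPM in b-gal- cells, 435 and 205 CPM in EpCAM-positive cells and 3371 and 3117 CPM in hepatocytes. It was higher in b-gal+ cells than in b-gal- cells, a log2 difference of 2.39 ± 0.57 (adjusted p = 0.0244), and than in EpCAM-positive cells, a log2 difference of 3.67 ± 0.57 (adjusted p = 0.00453). Of the 7 genes, 2 were higher and 2 lower in b-gal+ than in b-gal- cells.

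Of the 4 thrombin and protease-activated receptors, 1 was higher in b-gal- cells and 3 in the EpCAM-positive cells than in hepatocytes. F2r, the thrombin receptor, had 71 and 29.6 CPM in b-gal+ cells, 520.5 and 407 CPM in b-gal- cells, 231 and 155 CPM in EpCAM-positive cells and 25.3 and 25.2 CPM in hepatocytes. It was lower in b-gal+ cells than in b-gal- cells, a log2 difference of -3.31 ± 0.40 (adjusted p = 0.00214), and than in EpCAM-positive cells, a log2 difference of -2.03 ± 0.40 (adjusted p = 0.00998). It was higher than in hepatocytes in b-gal- cells, a log2 difference of 4.16 ± 0.40 (adjusted p = 0.000131), and in EpCAM-positive cells, a log2 difference of 2.88 ± 0.40 (adjusted p = 0.000852). Its order of groups was that of F8 and Tfpi.

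Among 6 tested of 8 further inhibitors, 4 were lower than in hepatocytes in each sorted group, while 1 was higher in b-gal+ cells, 1 in b-gal- cells and 2 in the EpCAM-positive cells. Serpina10 and Proz, the serpin and its cofactor that inhibit factor Xa, were lower, with log2 differences of -8.71 ± 0.54 and -7.34 ± 0.33 in b-gal+ cells, -9.78 ± 0.54 and -8.40 ± 0.33 in the b-gal- cells, and -7.04 ± 0.54 and -8.35 ± 0.33 in EpCAM-positive cells (highest adjusted p = 6.35e-05). Serping1, the inhibitor of C1 and of kallikrein, was lower, with log2 differences of -6.41 ± 0.67, -5.66 ± 0.67 and -5.02 ± 0.67 in the same groups (highest adjusted p = 0.000698). Tfpi2, a relative of Tfpi, was lower in b-gal+ cells than in b-gal- cells, a log2 difference of -2.96 ± 0.26 (adjusted p = 0.000991), and than in EpCAM-positive cells, a log2 difference of -1.86 ± 0.26 (adjusted p = 0.00332).

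Of 7 plasminogen receptors and related genes, 3 were higher and 4 lower than in hepatocytes in b-gal+ cells, and 3 were higher and 3 lower in b-gal- and in EpCAM-positive cells. Hrg, a plasma glycoprotein that binds plasminogen, and Fgl1, a secreted fibrinogen-like protein, were lower, with log2 differences of -8.34 ± 0.40 and -8.26 ± 0.69 in b-gal+ cells, -9.10 ± 0.40 and -9.08 ± 0.69 in the b-gal- cells, and -10.34 ± 0.40 and -9.88 ± 0.69 in EpCAM-positive cells (highest adjusted p = 7.73e-05). Fgl2, a membrane prothrombinase, had 93.6 and 106 CPM in b-gal+ cells, 29.9 and 29.2 CPM in b-gal- cells, 174 and 53.9 CPM in EpCAM-positive cells and 1.03 and 1.84 CPM in hepatocytes. It was higher in EpCAM-positive cells than in hepatocytes, a log2 difference of 5.69 ± 0.51 (adjusted p = 0.00012), and higher in b-gal+ than in b-gal- cells, a log2 difference of 1.74 ± 0.51 (adjusted p = 0.0495). S100a10, which presents plasminogen on the cell surface, was lower in b-gal+ cells than in b-gal- cells, a log2 difference of -2.20 ± 0.25 (adjusted p = 0.0018), and than in EpCAM-positive cells, a log2 difference of -2.18 ± 0.25 (adjusted p = 0.00208). Habp2, a protease that can activate factor VII, was lower in b-gal+ and b-gal- cells than in EpCAM-positive cells, with log2 differences of -4.33 ± 0.72 (adjusted p = 0.00562) and -4.84 ± 0.72 (adjusted p = 0.0181). Its levels were 1.61 and 2.86 CPM in b-gal+ cells, 0.922 and 1.96 CPM in b-gal- cells, 23.2 and 120.5 CPM in EpCAM-positive cells and 467 and 583 CPM in hepatocytes. The b-gal- call of Habp2 was lost with only b-gal- and EpCAM-positive cells in the fit, where 0 of all 14404 genes were called.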

How the data were processed

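RNA of 8 libraries was measured by RNA-seq. The deposited values are gene counts that the authors divided by a library factor of 1 to 1.5423. HTSeq and the builds GRCm38.p4 and mm10 are named per the submitters' processing notes. The scaling tool and strand setting are not given in the sources used here, and the values are written with decimal commas, so the authors' unit was recorded as other. Dividing by the smallest step gave whole reads within 0.01 for all values. Rows whose names were turned into dates (14 of 21982, 0.0514% to 0.182% of reads) name no gene and were left out.

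Reads were scaled by TMM (edgeR 4.0.16, factors 0.527 to 1.49), filtered with filterByExpr and tested with limma 3.58.1 in R 4.3.3 on log2(CPM + 0.5), with group means over all 8 libraries, 4 residual degrees of freedom and Benjamini-Hochberg adjustment. The steps were tested on simulated data. Since the deposited values are not whole counts, limma was the main test, and edgeR's quasi-likelihood test and DESeq2 1.42.0 were run as alternatives on the recovered counts. Other alternatives were DESeq2 size factors, the authors' scaling, no filter, pseudocounts of 0.1 and 2 CPM, only the compared groups, a replicate block, and each library left out. Fits on replicate 1 or replicate 2 alone of each sorted group were added after the data were seen. Replicates are separate pools of 2 mice. CPM per kilobase used GENCODE M21 exons (GRCm38), and promoters are RefSeq sequence (GRCm38.p6), matched by symbol. Members and gene lists were chosen with earlier results of these data known. All 32 members are described, and from each pathway list at most 3 called genes per comparison with a mean of at least 5 CPM, those of largest difference, are named. The listed inhibitor gene A2m and the marker genes Ly6g and Trac were not analysed here.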

Additional observations from a re-analysis of the deposited data

How the results depend on the processing

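Of 123 differences between groups that were followed for single members, 107 were called, 76 of these remained calls under every planned setting, and 31 were lost when at least 1 library was left out. Direction and call held for all 123 with DESeq2 size factors, 119 with edgeR (4 lost), 116 with DESeq2 (7 gained), 112 with the authors' scaling (6 lost and 5 gained) and 111 with only the compared groups (11 lost and 1 gained).

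Between b-gal+ and b-gal- cells, 2 members were called higher, but 1 with edgeR, 0 with the authors' scaling and 5 with only those groups. Beside these stood 1491, 1239, 1111 and 1772 of all 14404 genes. In each of these settings 4 members were called lower, beside 1867, 1736, 2304 and 2041 of all genes. Between b-gal+ and EpCAM-positive cells, 6 were called higher and 5 lower, beside 2111 and 2574 of all genes. With only those groups these were 1 and 3, beside 1063 and 1214 of all genes. Between b-gal- and EpCAM-positive cells, 3 were called higher, but 1 with the authors' scaling and 0 with only those groups, beside 811, 372 and 0 of all genes. In the same comparison 1 was called lower, but 2 with DESeq2 and 0 with only those groups, beside 946, 1642 and 0. In that comparison limma with only those groups called 0 of all 14404 genes in either direction, with 3096 at an unadjusted p under 0.05, against 811 higher and 946 lower with all groups, 563 and 780 with edgeR and 1213 and 1642 with DESeq2. Settings with replicate 1 alone or replicate 2 alone of each sorted group were added after the data were seen. Few or none of the calls in these 3 comparisons were kept there. Each such fit leaves 1 library in each sorted group, so it cannot show whether a call among them holds. Against hepatocytes, higher members numbered 7 in b-gal+ cells (11 with the authors' scaling, 6 to 8 with a library left out), 12 in b-gal- cells (8 to 12) and 10 in EpCAM-positive cells (7 to 11), and the 19 lower members numbered 17 to 19 in each with a library left out. The cause was not tested, and fits that leave 1 library in a group have little power to keep a call.

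With a library left out, directions reversed only among uncalled differences. In b-gal+ against b-gal- cells, Serpinb2 ran between -2.95 and 0.94, with 0.94 and 0.57 without b-gal+ replicate 2 and without b-gal- replicate 1, and Thbs1 ran between -2.88 and 0.81, with 0.50 and 0.81 without those libraries. In b-gal- against EpCAM-positive cells, F13a1 ran between -0.30 and 3.56, with -0.11 without b-gal- replicate 1 and -0.30 without EpCAM-positive replicate 2, and Serpind1 ran between -2.25 and 0.11, with 0.11 without EpCAM-positive replicate 2.

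Replicate numbers are shared by the groups. Y-linked genes had reads in replicate 1 of every group and none in replicate 2, and samples of the same number deviated together in all pairs of groups (correlation 0.177 to 0.494), but with only 2 numbers and no label that ties them to the same mice or day the pairing is not established. With a replicate block 117 of the 123 differences kept their call, 0 were lost and 6 were gained. The gains were Procr, Serpinc1 and Plat between b-gal+ and EpCAM-positive cells, F13a1 and Serpinb2 between b-gal+ cells and hepatocytes, and F13a1 between EpCAM-positive cells and hepatocytes.

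With 2 libraries a group, the spread rests on 4 residual degrees of freedom. Before TMM scaling, 3 reads set the floor at 0.122 to 0.177 CPM, and that floor covers counting error only. The TMM factors of 0.527 to 1.49 shift it between libraries.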

Other observations

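Markers of other non-parenchymal cells were present in the sorted libraries. Stellate cell markers summed to 1154 and 327 CPM in b-gal+ cells, 1387 and 1066 CPM in b-gal- cells, 1052 and 783 CPM in EpCAM-positive cells and 360.2 and 573 CPM in hepatocytes. Mesothelial markers were highest in EpCAM-positive cells, at 35.4 and 99.9 CPM, against 1.33 to 5.26 CPM in the F4/80high libraries and 0.665 and 1.76 CPM in hepatocytes. T and NK cell markers summed to 2.06 to 26.7 CPM in the sorted libraries and to 0.222 and 0.719 CPM in hepatocytes.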
